A study of Mus musculus with 6 samples.

Results

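Cytotoxic lymphocytes share a small set of genes, of which 10 were followed here in group 2 innate lymphoid cells (ILC2s): Gzma, Gzmb, Prf1, Nkg7, Klrb1c, Klrd1, Ncr1, Tbx21, Eomes and Xcl1. They were chosen by symbol as a programme of natural killer (NK) cells and group 1 innate lymphoid cells (ILC1s), with earlier results of these data known, and make up 10 of the 55394 genes in the data. Each symbol occurs 1 time, with the mouse identifier that GENCODE M21 gives to it. The cells were wild type lung ILC2s from C57BL/6 neonates, sorted as 1000 cells per library and profiled by SMART-seq, a low-input RNA sequencing method. There were 3 libraries from pups whose dams drank ampicillin, metronidazole, neomycin and vancomycin from gestation day 10 to day 14 (Abx), and another 3 came from the offspring of control mothers (Con). The age of the pups in these libraries, and whether a library came from 1 pup or from several, is not given in the sources used here, so p-values measure the spread between these libraries only.

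NK cells and cytotoxic T cells kill by releasing granules. Perforin makes pores in the target cell, and granzymes, which are serine proteases, pass into it and start cell death. NK cells depend on the T-box transcription factors T-bet and Eomes, and ILC1s on T-bet. Both carry surface receptors such as NK1.1, CD94 and NKp46 that weigh activating against inhibiting signals. ILC2s arise from a related innate progenitor but depend on GATA3 and make type 2 cytokines. The antibody cocktail used to remove other lineages before sorting included an antibody to NK1.1, the product of Klrb1c, and antibodies to T cell proteins.

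Levels are given as FPKM, fragments per kilobase of exon, scaled to the mapped fragments of the library, so they can be compared between genes. Total FPKM was 420941 to 449523 in Con and 431613 to 489262 in Abx, and 8574 to 9203 genes reached 1 FPKM in Con against 7074 to 8193 in Abx. The number of reads is unknown, and a gene listed at 0 may have been missed. Of the 8718 genes tested, 19.7% stood below 1 FPKM in 1 Abx library while reaching 10 FPKM in another of that group, and 5.51% had such a gap within Con. The label ILC2 was checked on 15 markers, of which 13 were at 1 FPKM or more in all 6 libraries. Gata3, the defining transcription factor, was at 76.1 to 97.5 FPKM in Con against 33.9 to 95.8 FPKM in Abx. Il1rl1, the IL-33 receptor, reached 1 FPKM in Con library 3 alone, at 2.94 FPKM. Xist, the transcript of the inactive X chromosome, was at 3.78 to 5.09 FPKM in Con and was not found in Abx, where each library lists it at 0. Xist was the only gene used to check the sex of the pups, so whether the groups differed in sex was not settled. The exposure and a difference in sex cannot be told apart in any difference given here.

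The promoters of 4 granule genes are shown because these genes span the range of the data: Gzma and Nkg7 were higher in every Abx library than in every Con library, Gzmb varied within both groups, and Prf1 was listed at 0 throughout. Each run holds the 250 bases before the RefSeq start (GRCm38.p6), 5′ to 3′ on the strand of the gene, with matches to 3 short motifs in capitals. The motifs, read on both strands, were TCACAC of T-box factors, ACCACA of RUNX factors and AGGAAG of ETS factors, and matches of different motifs did not overlap. RefSeq start sites were found for 9 of the 10 genes.
Gzma, chr13:113100982-113101231, minus strand: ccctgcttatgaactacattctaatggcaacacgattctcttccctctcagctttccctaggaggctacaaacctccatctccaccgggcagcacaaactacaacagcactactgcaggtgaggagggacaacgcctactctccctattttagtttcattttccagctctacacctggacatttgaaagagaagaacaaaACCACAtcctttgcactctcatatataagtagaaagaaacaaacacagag
Nkg7, chr7:43436888-43437137, plus strand: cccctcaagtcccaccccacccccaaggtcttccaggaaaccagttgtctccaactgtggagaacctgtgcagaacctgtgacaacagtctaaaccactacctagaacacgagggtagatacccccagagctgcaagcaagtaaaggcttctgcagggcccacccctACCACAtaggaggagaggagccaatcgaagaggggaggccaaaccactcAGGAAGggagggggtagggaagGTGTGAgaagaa
Gzmb, chr14:56262335-56262584, minus strand: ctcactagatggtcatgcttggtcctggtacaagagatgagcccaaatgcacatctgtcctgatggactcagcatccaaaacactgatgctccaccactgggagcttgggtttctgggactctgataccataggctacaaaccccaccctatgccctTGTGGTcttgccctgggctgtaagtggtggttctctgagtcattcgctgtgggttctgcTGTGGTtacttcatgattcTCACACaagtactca
Prf1, chr10:61297586-61297835, plus strand: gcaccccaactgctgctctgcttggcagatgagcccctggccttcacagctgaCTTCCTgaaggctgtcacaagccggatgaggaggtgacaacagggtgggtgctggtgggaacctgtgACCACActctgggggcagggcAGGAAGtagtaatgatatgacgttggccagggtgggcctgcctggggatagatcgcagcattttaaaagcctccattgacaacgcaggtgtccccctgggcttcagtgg
The T-box motif was present before 4 of the 9 genes (Gzmb, Ncr1, Nkg7 and Xcl1) and before 12.3% of all 32851 promoters of this length. The RUNX motif was present before 7 of the 9 genes and 14.0% of all promoters, and the ETS motif before 5 of the 9 genes and 29.5% of all promoters. Gzma had a RUNX match that began 50 bases before its start and neither of the other motifs. Nkg7 had all 3 motifs, with the T-box match beginning 12 bases before its RefSeq start. GENCODE M21 starts Nkg7 at 43437073, within the printed run. The T-box and ETS matches of Nkg7 therefore lie inside the gene as GENCODE gives it. Gzmb had RUNX matches on the opposite strand beginning 93 and 34 bases before its start and a T-box match at 15 bases. Prf1 had RUNX and ETS matches.

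Of the 10 genes, Nkg7 was the only 1 at 1 FPKM or more in all 6 libraries. Gzma reached 1 FPKM in 5 libraries, Gzmb in 4 and Klrd1 in 3, and these 4 genes passed the filter of at least 1 FPKM in at least 3 libraries. Ncr1 and Xcl1 each reached 1 FPKM in 1 library. Prf1, Klrb1c and Tbx21 were listed at 0 in all 6 libraries, and Eomes did not exceed 0.01 FPKM. Among all genes, 76.6% stayed under 1 FPKM in all libraries and 7.68% reached it in all 6. The question of the comparison was whether the ILC2s of exposed pups differ in these genes from those of control pups.

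**Figure D1:**
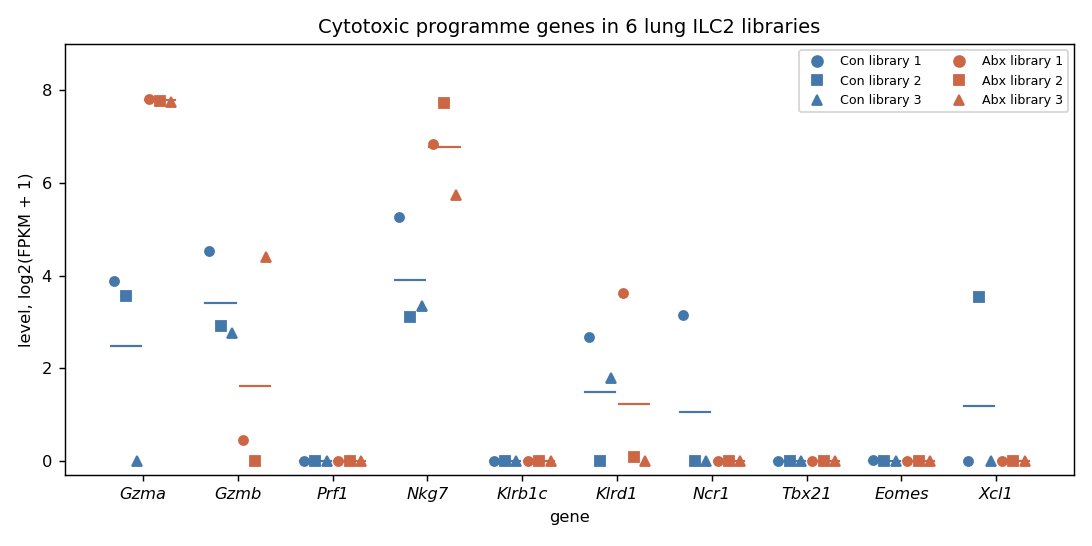
Level of the 10 genes in each library, as log2(FPKM + 1); symbols mark the library, colours the group and short lines the group means of 3 libraries. All Abx points lie above all Con points for Gzma and Nkg7, the groups overlap for Gzmb and Klrd1, and Prf1, Klrb1c, Tbx21 and Eomes lie at or near 0.

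Gzma encodes granzyme A, a granule protease that cuts after basic residues. It lies on chromosome 13 of GRCm38 (GENCODE M21) from 113093825 to 113100981, on the minus strand, and overlaps no other annotated gene. Gzma (ENSMUSG00000023132) measured 13.8, 10.8 and 0 FPKM in Con libraries 1, 2 and 3 and 224, 218 and 215 FPKM in Abx libraries 1, 2 and 3. The groups did not overlap, and the lowest Abx library was far above the highest Con library. The mean was 8.18 ± 7.25 FPKM (SD, n = 3) in Con against 219 ± 4.14 FPKM (SD, n = 3) in Abx, a ratio of means of 26.8. The fitted difference in log2(FPKM + 1) was 5.30 (standard error 0.95, 95% interval 3.09 to 7.51), and 3 of the 8718 genes tested, 0.0344%, had a larger positive difference. Its limma adjusted p was 0.0911 (unadjusted p = 0.000624, rank 51 of the genes tested), so Gzma did not pass the threshold of 0.05. The exact two-sided permutation test gave p = 0.1, the smallest that 3 libraries against 3 allow. The size rested in part on the library listed at 0: without Con library 3 the difference was 4.06 (limma adjusted p = 0.0632). In such bulk libraries, fewer cells with a transcript and less of it per cell cannot be told apart.

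Within its group, Gzma placed above 96.4% to 96.7% of the tested genes in the Abx libraries, and above 61.2%, 54.9% and 0% of them in Con libraries 1, 2 and 3. Its coefficient of variation over the Abx libraries was 1.89%. The 517 tested genes with a mean within 2-fold of that of Gzma in Abx had a median coefficient of variation of 25.8%, and 0 of them had a smaller value than Gzma. This comparison was chosen after the values were seen.

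Nkg7 encodes a membrane protein of cytotoxic granules that is needed for their release. It lies on chromosome 7 from 43437073 to 43438249, on the plus strand. Nkg7 (ENSMUSG00000004612) measured 37.3, 7.61 and 9.12 FPKM in Con libraries 1, 2 and 3 and 113, 212 and 52.2 FPKM in Abx libraries 1, 2 and 3. Again the groups did not overlap, but Con library 1 and Abx library 3 lay close to each other. The mean was 18.0 ± 16.7 FPKM (SD, n = 3) in Con against 126 ± 80.8 FPKM (SD, n = 3) in Abx, a ratio of means of 6.99. The fitted difference was 2.87 (standard error 0.71, 95% interval 1.22 to 4.52, limma adjusted p = 0.140, unadjusted p = 0.00411), and a difference at least as large was found in 0.711% of the genes tested. The exact permutation test gave p = 0.1. In contrast to Gzma, the spread of Nkg7 within Abx was wide, with a coefficient of variation of 64.2%, and it was highest in Abx library 2, where Gzma was at its Abx median.

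Gzmb encodes granzyme B, the granule protease that cuts after aspartate and activates caspases. It lies on chromosome 14 from 56258838 to 56262260. Gzmb (ENSMUSG00000015437) measured 22.2, 6.54 and 5.78 FPKM in Con libraries 1, 2 and 3 and 0.36, 0 and 20.03 FPKM in Abx libraries 1, 2 and 3. All Con libraries expressed the gene, whereas in Abx it was found in library 3 at the level of the highest Con library and was near or at 0 in the other two. The fitted difference was -1.79 (standard error 1.27, 95% interval -4.75 to 1.16, limma adjusted p = 0.690), and the groups overlapped (exact permutation test, p = 0.3). The interval spans a large fall and a rise of more than 2-fold, so a difference in Gzmb was not detectable with these libraries. Without Abx library 3 the difference was -3.18 (limma adjusted p = 0.2004), and without Abx library 2 it was -0.99 (limma adjusted p = 0.783).

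Prf1, the gene of perforin, lies on chromosome 10 from 61297833 to 61304680. Prf1 (ENSMUSG00000037202) was listed at 0 in all 6 libraries, including the Abx libraries in which Gzma was at 215 FPKM or more. Of the 10 granzyme genes in the data, Gzma and Gzmb among them, 6 were listed at 0 in all libraries and 3 reached 1 FPKM in any library. Among all genes, 76.6% reached 1 FPKM in no library. The third granzyme to reach it was Gzmc, at 8.52 FPKM in Con library 3 and at 0 elsewhere. Gzmk, a granzyme of memory-like T cells, was at 0.06 FPKM in Abx library 1 and at 0 elsewhere.

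The receptor genes lie in clusters on chromosomes 6 and 7. Klrd1 encodes CD94, which pairs with NKG2 proteins to read the class I molecule Qa-1, and lies on chromosome 6 from 129591782 to 129598775. Klrd1 (ENSMUSG00000030165) measured 5.39, 0 and 2.45 FPKM in Con libraries 1, 2 and 3 and 11.3, 0.06 and 0 FPKM in Abx libraries 1, 2 and 3. Both groups held libraries with the gene and libraries without it, and library 1 was the highest in each. The fitted difference was -0.25 (standard error 1.15, 95% interval -2.92 to 2.42, limma adjusted p = 0.960), with p = 1 in the exact permutation test. Its sign turned with quantile normalization, at 0.043, and when Con library 1, Abx library 2 or Abx library 3 was left out.

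Klrb1c encodes NK1.1, the receptor against which the sort selected, and lies on chromosome 6 from 128778485 to 128789215. Klrb1c (ENSMUSG00000030325) was listed at 0 in all 6 libraries. Ncr1 encodes NKp46, an activating receptor of NK cells, ILC1s and some ILC3s, and lies on chromosome 7 from 4337724 to 4345164. Ncr1 (ENSMUSG00000062524) was at 7.90 FPKM in Con library 1 and at 0 in the other 5 libraries (exact permutation test, p = 1). Con library 1 was therefore the only library with both Ncr1 and Klrd1 above 1 FPKM, and it also had the highest Gzma, Gzmb and Nkg7 of the Con group.

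Neither transcription factor reached 1 FPKM in any library. Tbx21, the gene of T-bet (ENSMUSG00000001444, chromosome 11 from 97098071 to 97115331), was listed at 0 in all 6 libraries. Eomes (ENSMUSG00000032446, chromosome 9 from 118478212 to 118486132) was at 0.01 FPKM in Con library 1 and at 0 elsewhere. Xcl1 encodes lymphotactin, a chemokine by which NK cells and CD8 T cells attract cross-presenting dendritic cells, and lies on chromosome 1 from 164931644 to 164935527. Xcl1 (ENSMUSG00000026573) was at 10.7 FPKM in Con library 2 and at 0 in the other 5 libraries (exact permutation test, p = 1). Klrb1c, Eomes and Xcl1 each overlap another annotated gene, so reads there may be shared between genes.

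Summed over the 10 genes, the level was 86.6, 35.6 and 17.3 FPKM in Con libraries 1, 2 and 3 and 349, 431 and 288 FPKM in Abx libraries 1, 2 and 3. Gzma and Nkg7 together made up 93.0% to 99.99% of this sum in Abx and 51.6% to 59.0% of it in Con. The number of these genes at 1 FPKM or more was 3 to 5 per Con library and 2 to 3 per Abx library. Thus the Abx libraries had the higher sum and held no more of the genes.

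Of the 10 genes, 4 were tested. Of these 4, 0 passed limma at an adjusted p below 0.05 with more than a 2-fold change. Of the 8718 genes tested, 5 (0.0574%) did, 4 of them (0.0459%) higher and 1 (0.0115%) lower in Abx. Without adjustment, 2 of the 4 members tested (Gzma and Nkg7) had p under 0.05 and were higher in Abx, beside 4.74% of the genes tested. None of the 4 was lower, beside 6.25%. The same 2 genes had every Abx library above every Con library, as had 8.49% of the genes tested. None of the 4 had every Abx library below every Con library, as had 8.73%. The median fitted difference of the 4 tested genes was 1.31, beside -0.06 over all genes tested, but it rests on which genes passed the filter. The plot of fitted differences sets these 4 genes beside the other genes of the programme.

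**Figure D2:**
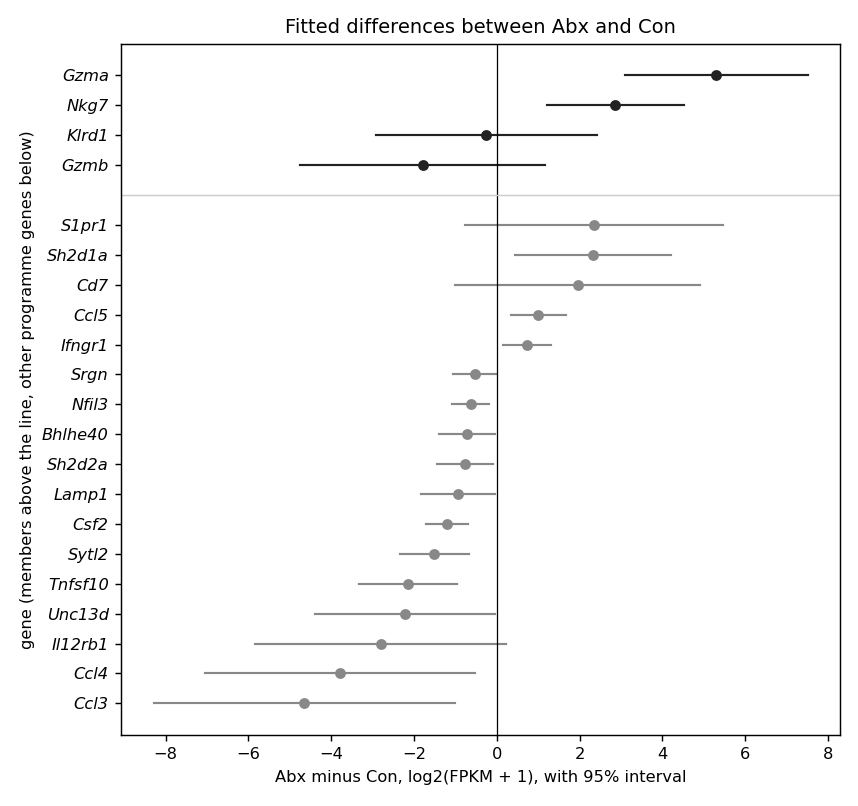
Fitted difference (Abx minus Con) in log2(FPKM + 1) with its 95% interval from limma, for the 4 tested genes of the set (black) and for the other programme genes with an unadjusted p under 0.05 or among the 3 highest or 3 lowest (grey). Gzma at 5.30 and Nkg7 at 2.87 lie right of 0, the intervals of Gzmb and Klrd1 span 0, and the chemokine genes Ccl3 and Ccl4 lie farthest left.

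A wider list of 112 genes of NK cells and ILC1s was set beside the 10. Of these, 110 were in the data, 22 were listed at 0 in all libraries and 58 passed the filter. Of all 55394 genes, 19564 were above 0 in any library and 8718 passed the filter. None of the 58 was called with limma. At an unadjusted p under 0.05, 3 were higher in Abx (5.17%, beside 4.74% of all genes tested) and 11 were lower (19.0%, beside 6.25%). The 11 include Sytl2 and Tnfsf10, which passed the filter through Con alone, the group where they were higher. In Abx, 19 of the 58 had a positive difference (32.8%, beside 47.0% of all genes tested), and the median difference was -0.48.

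Among the NK receptors, 13 of 28 were listed at 0 in all libraries and 11 reached 1 FPKM in any. Among all genes, 76.6% stayed under 1 FPKM in all libraries, so absence was not particular to these receptors. Of the 9 Ly49 receptors, which read class I molecules, 8 were listed at 0 throughout, and Klra1 was at 16.4 FPKM in Abx library 3 alone. Klrk1, the gene of the activating receptor NKG2D, measured 1.67 and 5.28 FPKM in Con libraries 1 and 2 and 0 in the other 4. Klrg1, an inhibitory receptor of mature NK cells that ILC2s also carry, was at 188 to 401 FPKM in Con against 174 to 416 FPKM in Abx, with a difference of 0.03 (standard error 0.39, limma adjusted p = 0.986).

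Granule genes that are used in many cell types were present in both groups. Srgn, the gene of the proteoglycan serglycin that packs granules, was at 777 to 1206 FPKM in Con against 591 to 800.0 FPKM in Abx, with a difference of -0.53 (standard error 0.22, limma adjusted p = 0.442). Lamp1, a membrane protein of lysosomes and granules, was at 119, 74.5 and 78.2 FPKM in Con against 29.1, 68.8 and 47.3 FPKM in Abx, so the groups did not overlap (difference -0.94, limma adjusted p = 0.417). Of the 8 tested genes for granule proteins, 1 had a positive difference (12.5%, beside 47.0% of all genes tested), and so had 1 of the 8 tested genes for granule release. In the second of these lists, Unc13d, which primes granules for fusion, was at 4.62 to 11.6 FPKM in Con, against 5.70, 0 and 0.26 FPKM in Abx (difference -2.21, limma adjusted p = 0.443). Sytl2, which helps to dock granules, was at 1.55 to 2.29 FPKM in Con and did not exceed 0.01 FPKM in Abx (difference -1.51, limma adjusted p = 0.128). It was therefore tested through its Con values alone.

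The death ligands, cytokines and chemokines held the widest differences among the other genes. Ccl3, a chemokine of activated NK cells and other leukocytes, was at 266, 100.5 and 224 FPKM in Con against 0.92, 0.58 and 128 FPKM in Abx (difference -4.64, standard error 1.56, limma adjusted p = 0.283). Its neighbour Ccl4 was at 220.4, 174 and 243 FPKM in Con against 17.4, 134 and 0.44 FPKM in Abx (difference -3.79, standard error 1.40, limma adjusted p = 0.346). The groups were separate for Ccl4, with Abx lower, but not for Ccl3, where Abx library 3 lay within the Con range. Tnfsf10, the death ligand TRAIL, was at 2.65 to 5.16 FPKM in Con, against 0.42, 0.03 and 0.01 FPKM in Abx (difference -2.14, standard error 0.51, limma adjusted p = 0.128).

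Csf2, the gene of the cytokine GM-CSF, was at 3242 to 4259 FPKM in Con against 1344 to 2072 FPKM in Abx (difference -1.21, standard error 0.22, limma adjusted p = 0.0911). Ccl5, which cytotoxic T and NK cells store and release, went the other way. It was at 74.7, 52.5 and 45.3 FPKM in Con against 128, 98.9 and 116 FPKM in Abx (difference 1.001, standard error 0.29, limma adjusted p = 0.190). Ifng, the main cytokine of ILC1s and NK cells, was at 27.9 FPKM in Abx library 2 and did not exceed 0.06 FPKM in any other library. Fasl, the death ligand of the Fas receptor, was at 19.8 FPKM in Abx library 3 and at 0 in the other 5.

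Among the adaptors and receptors, Sh2d1a, which encodes the signalling adaptor SAP of T and NK cells, was at 2.27, 0 and 0.7 FPKM in Con against 7.44, 16.1 and 3.91 FPKM in Abx (difference 2.33, standard error 0.81, limma adjusted p = 0.305). The groups did not overlap for this gene. Sh2d2a, another adaptor of lymphocytes, had a difference of -0.77 (limma adjusted p = 0.374). Ifngr1, a chain of the interferon gamma receptor, was at 79.4 to 112 FPKM in Con against 130 to 176 FPKM in Abx (difference 0.72, standard error 0.25, limma adjusted p = 0.294). S1pr1 and Cd7 had differences of 2.35 and 1.95 and overlapped between the groups (limma adjusted p = 0.601 and 0.655). Il12rb1, a chain of the receptors for IL-12 and IL-23, had a difference of -2.80 and also overlapped (limma adjusted p = 0.491).

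Of the 18 transcription factors in the wider list, 14 passed the filter and 0 were called. Id2, needed by all innate lymphoid cells, was at 782 to 1053 FPKM in Con against 966 to 1315 FPKM in Abx (difference 0.37, standard error 0.20, limma adjusted p = 0.575). Nfil3, which acts early in innate lymphoid development, was at 237 to 276 FPKM in Con against 155 to 171 FPKM in Abx (difference -0.63, standard error 0.19, limma adjusted p = 0.222), with no overlap. Bhlhe40, which supports cytokine production, had a difference of -0.72 (limma adjusted p = 0.404). Zfp683, the gene of Hobit, which marks liver ILC1s, was listed at 0 in all libraries.

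**Figure D3:**
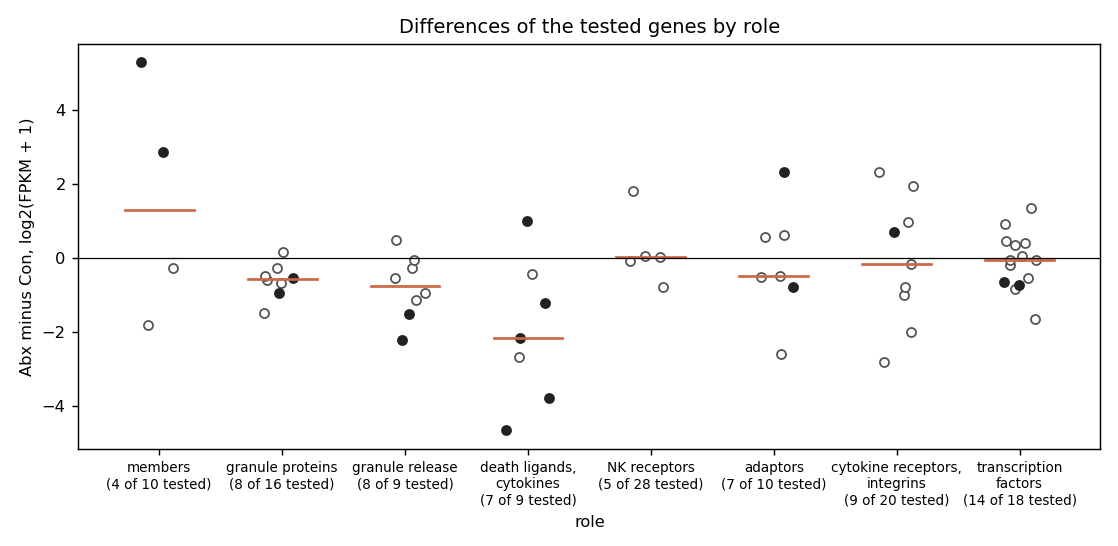
Fitted difference (Abx minus Con) in log2(FPKM + 1) of each tested gene by role; filled points have an unadjusted p under 0.05 (none was called after adjustment) and lines are medians. Gzma and Nkg7 are the 2 filled points among the 4 tested of the 10 genes. Of the 7 tested death ligands and cytokines, 4 are filled points below 0 (57.1%, beside 6.25% of all genes tested), and the NK receptors hold no filled point. Tnfsf10, among these 4, passed the filter through Con alone.

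Several of the 10 genes are also expressed by T cells. The 11 T cell markers were all in the data and summed to 1231 to 1410 FPKM in Con against 2559 to 2854 FPKM in Abx. This sum, Gzma and Nkg7 were each higher in every Abx library than in every Con library. Within the groups, their orders differed in part. With 3 libraries a group, and Gzma at only 215 to 224 FPKM in Abx, such orders carry little information. Trbc1 and Trbc2, the constant segments of the T cell receptor beta chain, held most of this sum. Trbc2 was at 874 to 958 FPKM in Con against 1639 to 1803 FPKM in Abx, and Trbc1 was at 208 to 387 FPKM in Con against 633 to 778 FPKM in Abx (limma adjusted p = 0.0911 for each). Trac, the constant segment of the alpha chain, was at 11.7, 3.01 and 10.8 FPKM in Con against 21.2, 14.1 and 0.22 FPKM in Abx, with overlap and a difference of -0.19 (limma adjusted p = 0.9752). Of the 8 markers tested, 7 had a positive difference (87.5%, beside 47.0% of all genes tested), 3 were higher at an unadjusted p under 0.05 (37.5%, beside 4.74%) and 4 had every Abx library above every Con library (50.0%, beside 8.49%). Bcl11b, among the 7, is also on the list of ILC2 markers. Cd3d, a chain of the T cell receptor complex, was at 8.32, 6.10 and 4.46 FPKM in Con against 63.8, 37.1 and 108 FPKM in Abx (limma adjusted p = 0.0911). Cd3e was at 3.89, 7.57 and 1.55 FPKM in Con against 18.5, 4.31 and 6.57 FPKM in Abx, and Cd4 was at 0 in 5 libraries.

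Of the CD8 T cell pair, Cd8b1 was at 4.62, 10.2 and 0 FPKM in Con against 27.1, 52.2 and 36.4 FPKM in Abx (limma adjusted p = 0.184), while Cd8a reached 3.25 FPKM in Con library 1 and did not exceed 0.04 FPKM in Abx. Cd8b1 and Gzma were both listed at 0 in Con library 3. Each was higher in every Abx library than in every Con library. Their order within a group cannot be read further, because Gzma spanned only 215 to 224 FPKM in Abx and each group has 3 libraries. Trdc, the constant segment of the T cell receptor delta chain, was at 0.01 to 1.91 FPKM in Con against 4.91 to 8.08 FPKM in Abx (limma adjusted p = 0.310). The part of T cell transcripts in the levels of Gzma and Nkg7 was not tested.

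The markers of ILC2s summed to 2748 to 2906 FPKM in Con against 1333 to 1766 FPKM in Abx, and 4 of the 13 tested (30.8%, beside 8.73% of all genes tested) had every Abx library below every Con library. These 4 were Areg, Arg1, Hs3st1 and Icos, which held most of the sum in Con. Another 5 of the 13 (Il7r, Bcl11b, Il17rb, Thy1 and Klrg1) had positive differences, of 0.03 to 0.77, and overlapped between the groups. The 9 markers of mast cells and basophils, cells that can also carry Gzmb, summed to 425 to 577 FPKM in Con against 193 to 315 FPKM in Abx. Cpa3 was at 287 to 396 FPKM in Con against 176 to 293 FPKM in Abx, and Mcpt8 was at 21.8 to 36.9 FPKM in Con against 1.56 to 10.9 FPKM in Abx. Their part in the level of Gzmb was not tested. The 8 B cell markers summed to 259 to 305 FPKM in Con against 539 to 596 FPKM in Abx, and they differed in direction among themselves. Ighm, the heavy chain of IgM, held most of the sum in Abx, at 109 to 159 FPKM in Con against 358 to 429 FPKM in Abx (limma adjusted p = 0.0911). Of the 6 tested, 2 (Ighm and Ms4a1) had every Abx library above every Con library and 2 (Cd79b and Cd22) had every one below. Cd79b, a chain of the B cell receptor complex, was at 69.5 to 117 FPKM in Con against 31.0 to 57.4 FPKM in Abx (limma adjusted p = 0.472). The 6 markers of ILC3s summed to 32.3 to 147 FPKM in Con against 94.3 to 113 FPKM in Abx.

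**Figure D4:**
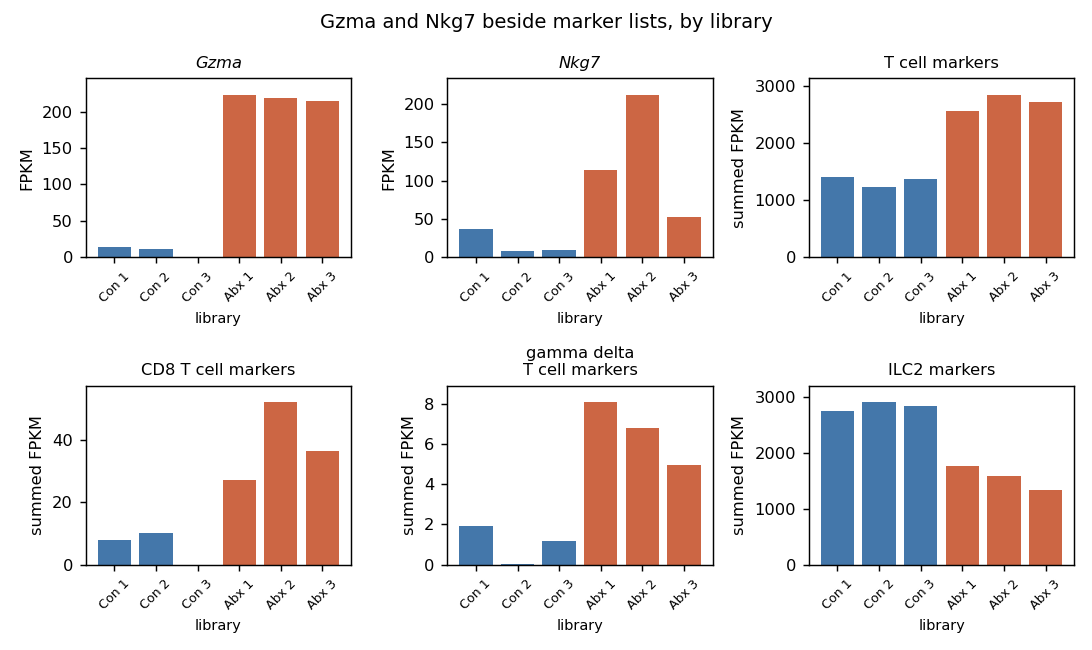
Bars give FPKM of Gzma and Nkg7 and the summed FPKM of marker lists in each of the 6 libraries (Con blue, Abx orange), each panel on its own axis from 0. Gzma, Nkg7 and the summed T cell, CD8 T cell and gamma delta T cell lists are higher in every Abx library than in every Con library, and the ILC2 list is lower. Few genes carry these T cell sums. Trbc1 and Trbc2 hold most of the T cell sum. In Abx, Cd8b1 holds almost all of the CD8 T cell sum, with Cd8a at no more than 0.04 FPKM, and Trdc holds almost all of the gamma delta T cell sum.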

How the data were processed

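Lung ILC2s were profiled by SMART-seq in 6 libraries of 1000 cells, grouped by the sample titles. The deposited values are FPKM, which the authors made with Cutadapt, HISAT2 and StringTie. Their methods name a human Ensembl annotation (release 96), and the submitters' processing notes also name Bowtie 0.12.2 and builds mm8 and mm9, while all identifiers are mouse. Positions are from GENCODE M21 (GRCm38), in which 55134 of the 55394 identifiers occur, and promoters from RefSeq (GRCm38.p6).

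Whole reads could not be recovered from the low values (24.2% to 27.3% within 0.1 of a multiple of the best step, 20% by chance), so depth is unknown and no counting error is given. The authors compared the groups with DESeq2, which needs counts. Instead, genes that reached 1 FPKM in 3 or more libraries were tested on log2(FPKM + 1) with limma 3.58.1 (R 4.3.3; trend = TRUE, two-sided, Benjamini-Hochberg over 8718 genes). This scale understates changes of low genes. A gene was called at an adjusted p below 0.05 and a change of more than 2-fold. Exact two-sided permutation tests used the difference of mean log2(FPKM + 1). Tables and motif searches used Python 3.11.15 with pandas 2.3.3. The fit was tested on simulated normal values with a common spread, smaller than that of the data, and without the gaps seen within groups. That test therefore does not show how the fit performs on genes with such gaps.

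The 10 genes and the lists were chosen with earlier results of these data known. Of the wider list, those named have an unadjusted p under 0.05 or are among the 3 highest or 3 lowest differences; others (Klrg1, Id2, Klrk1, Klra1, Ifng, Fasl, Gzmc, Gzmk, Zfp683) were named after their values were seen. Vamp7 and 3 gamma chain segments were not found by symbol, and Cd244 is listed as Cd244a. Of the listed markers, Zbtb16 has a further entry under another identifier, which was not used. The 4 NKT cell markers summed to 6.50 to 30.5 FPKM in Con and 4.22 to 63.2 FPKM in Abx, the 9 myeloid markers to 115 to 364 and 176 to 375 FPKM, the 6 neutrophil markers to 2.91 to 16.2 and 0 to 75.3 FPKM, the 8 of epithelium and stroma to 31.6 to 1161 and 69.0 to 148 FPKM, and the 5 erythroid markers to 6418 to 14823 and 3166 to 8659 FPKM.

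The alternatives were pseudocounts of 0.1 and 0.01, no filter, a mean of at least 5 FPKM, quantile normalization, median centring, the replicate number as a block, each library left out (with the genes tested kept), the unadjusted p and no limit on the fold change.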

Additional observations from a re-analysis of the deposited data

How the results depend on the processing

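Gzma, Nkg7 and Gzmb kept their direction under all 13 alternatives that give a difference, and none of the 10 genes was called under any alternative with an adjusted p. The Gzma difference ranged from 4.06 to 7.59 with limma adjusted p from 0.0632 to 0.404, that of Nkg7 from 2.38 to 3.55 (0.153 to 0.612) and that of Gzmb from -4.49 to -0.99 (0.2004 to 0.901). Pseudocounts of 0.1 and 0.01 raised the Gzma difference to 6.47 and 7.59. The Klrd1 difference turned to 0.043 with quantile normalization and, with libraries left out, lay between -1.45 and 0.37, with 0.34 without Con library 1, 0.32 without Abx library 2 and 0.37 without Abx library 3; its mean was too low for the filter of 5 FPKM. The median difference of the tested members was -0.25 with no filter, which adds genes near 0, 2.87 with a mean of at least 5 FPKM, and 0.74 to 1.94 with each library left out. With an unadjusted p and a fold change over 2, 2 of the 4 members tested, 8 of the 58 tested genes of the wider list and 814 of the 8718 genes tested passed. The 5 genes called of all genes became 0 with pseudocounts of 0.1 or 0.01, with no filter and with the replicate block, and 0 to 2 with each library left out (2 without Abx library 2), and the cause was not tested. The median difference of all genes was -0.15 and -0.17 with the smaller pseudocounts against -0.06. Libraries with the same replicate number did not deviate together (correlations of -0.02, -0.03 and 0.01 across genes), so the numbers give no pairing. With the replicate block the adjusted p of Gzma and of Nkg7 was 0.293, and 0 members and 0 genes of the wider list were called. With 3 libraries a group and no read counts, differences in genes near 0 were not detectable.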
